A study of Mus musculus with 12 samples.

Results

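Ribosome biogenesis genes encode the nucleolar machinery that makes ribosomes without being part of them. A list of 37 such genes was read on 12 Affymetrix arrays of mouse T cells. A gene was represented by array features (transcript clusters) annotated with its symbol and no other, and by the brightest of these over the 12 arrays where it had several. This gave 34 of the 37 genes among 22180 genes in all. Fbl, Tsr1 and Npm3 had no cluster of their own and have no value here.

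The T cells came from C57BL6-Foxp3-GFP mice, whose green fluorescent protein (GFP) reports Foxp3, a transcription factor that defines regulatory T cells. CD8 or CD4 cells at 200000 per well were stimulated with 20000 CD11c dendritic cells of the BALB/c strain, a foreign strain, and all wells held IL-2 at 5 ng/mL. Control wells received nothing more and gave GFP-negative cells. The remaining wells had 40 nM retinoic acid and 5 ng/mL TGFb added, and their GFP-positive cells were sorted. CD8 cultures ran for 4 days and CD4 cultures for 5 days. The 4 groups of 3 arrays, replicates A to C, are called CD4 control and CD4 Foxp3-positive, CD8 control and CD8 Foxp3-positive. The added factors and the sort changed together within a lineage, and lineage and culture time cannot be told apart. Cells were pooled for staining and sorting, and separate cultures or animals behind the replicates are not described, so the p-values reflect no more than how far these samples spread, and that spread may be technical.

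Ribosome production starts in the nucleolus, where RNA polymerase I copies ribosomal DNA into a long precursor RNA. Small nucleolar ribonucleoproteins (snoRNPs) modify that RNA, processing complexes cut it, and assembly factors fold it with ribosomal proteins into the small and large subunits. T cells activated by antigen enlarge their nucleoli and raise this output before and while they divide. Myc, which binds DNA as a dimer with Max at the E-box, a short palindromic DNA word, is a well known activator of these genes. The Mxd proteins also pair with Max at E-boxes and repress.

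The E-box CACGTG stood near the start of 8 of the 32 listed genes that had a promoter entry in RefSeq's GRCm38.p6 annotation, in the window from 250 bases before to 50 bases after the start. Bop1, Fbl, Npm1, Rrp12 and Rrs1 had no entry. The stretches of 30 bases around these words are shown because they let a reader see the Myc-type word in the promoters of 7 measured members and of Tsr1, which has no value here. The capitals mark the E-box, which reads the same on both strands, and each sequence runs 5′ to 3′ on the gene's own strand.

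Imp4, chr1:34439696-34439725, plus strand: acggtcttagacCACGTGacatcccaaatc
Nop2, chr6:125131811-125131840, plus strand: gtgtccctggatCACGTGtgttccggtgcc
Grwd1, chr7:45830740-45830769, minus strand: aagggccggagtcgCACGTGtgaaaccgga
Utp20, chr10:88826765-88826794, minus strand: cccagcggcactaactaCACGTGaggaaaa
Pes1, chr11:3963965-3963994, plus strand: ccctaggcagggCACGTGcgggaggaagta
Mybbp1a, chr11:72441347-72441376, plus strand: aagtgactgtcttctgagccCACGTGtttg
Tsr1, chr11:74898092-74898121, plus strand: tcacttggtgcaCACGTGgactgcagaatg
Wdr43, chr17:71616220-71616249, plus strand: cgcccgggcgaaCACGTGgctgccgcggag

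In Imp4 and Nop2 the word lay 121 and 60 bases before the start, and in the remaining 6 genes it lay within the first bases after it, from base 3 in Pes1 to base 41 in Mybbp1a. The E-box was in 25.0% of the 32 members, in 7.15% of all 32851 promoter windows and in 9.19% of the 16990 genes of the array that had a window. The ETS-type word CCGGAAG, searched on both strands, was in 10 of the 32 members (31.2%), in 8.86% of all windows and in 12.7% of the array's genes. Nop2 and Grwd1, together with Tsr1, carried both words. The NRF1 core GCATGCGC was in 2 members, Nob1 and Ftsj3 (6.25%), against 2.71% of windows and 4.06% of the array's genes. TATAAA was in 3 members (9.38%), against 13.6% of windows and 14.3% of the array's genes. A match says only that these letters are present. The 250 bases before the start of Nop2, an RNA methyltransferase of the large subunit, are shown as a promoter with both words, the E-box first and the ETS-type word after it.

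Nop2, chr6:125131633-125131882, plus strand: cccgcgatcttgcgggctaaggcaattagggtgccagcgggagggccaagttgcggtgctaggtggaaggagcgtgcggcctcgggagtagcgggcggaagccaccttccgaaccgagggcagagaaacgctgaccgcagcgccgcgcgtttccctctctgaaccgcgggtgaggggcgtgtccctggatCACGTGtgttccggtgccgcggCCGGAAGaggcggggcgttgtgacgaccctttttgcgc

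The labels were checked with Foxp3, Cd4, Cd8a and Cd8b1. Foxp3 averaged 5.66 and 5.76 in the CD8 and CD4 controls and 12.48 and 12.44 in the sorted groups. Cd4 was at 11.92 or more in CD4 cells and at most 5.36 in CD8 cells, and Cd8b1 was at 11.86 and 11.97 in CD8 cells. Of the 4 genes 2 were called higher and 1 lower in CD8 than in CD4 cells, both in controls and in Foxp3-positive cells. From CD4 controls to CD4 Foxp3-positive cells 2 of the 4 were called higher and 1 lower, and the lowest log2 change was -1.55. All 5 measured T cell markers lay above 5.60, the median of all genes, in every group. The mean of the 9 measured dendritic cell markers ranged over arrays from 6.72 to 6.86 in CD8 controls, 6.59 to 6.64 in CD8 Foxp3-positive, 6.71 to 6.81 for CD4 controls and 6.36 to 6.60 for CD4 Foxp3-positive cells. Among them Itgax, which encodes CD11c, averaged 6.53 in CD8 controls and 4.77 to 4.95 in the other groups. Between CD8 and CD4 controls 3 of the 9 differences were above 0 and 6 below, with 1 called higher (12.1% of all genes). Of the 9 markers 2 were called higher and 2 lower in CD8 Foxp3-positive cells than in CD8 controls. In CD4 cells 2 were called lower and 0 higher. Of all genes 9.39% rose and 10.6% fell in CD8 cells, and 12.1% rose and 10.4% fell in CD4 cells. The mean of 5 of 6 B cell markers ranged from 5.15 to 5.28 in CD8 controls, 5.44 to 5.61 in CD8 Foxp3-positive, 5.05 to 5.2 for CD4 controls and 5.35 to 5.45 for CD4 Foxp3-positive cells. That of 6 macrophage markers ranged from 5.46 to 5.61, 5.68 to 6.09, 5.48 to 5.75 and 5.502 to 5.73 in the same order. Both lists thus lay higher in CD8 Foxp3-positive cells than in CD8 controls without overlap, with 2 markers of each called higher (Cd79a and Cd79b, Lyz2 and C1qb) and Cd68 called lower. The B cell list also lay higher in CD4 Foxp3-positive cells than in CD4 controls without overlap. The dendritic cell list lay lower in Foxp3-positive cells than in controls without overlap, in both lineages. The part of other cells in the results below was not tested.

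In CD8 controls the ribosome biogenesis genes were at their highest, and in the other groups they lay lower. The group mean was highest in CD8 controls for 33 of the 34 genes, as it was for 28% of all genes. Rrp1b was the exception, with its highest mean in CD8 Foxp3-positive cells. The lowest mean fell in CD4 controls for 22 genes, in CD8 Foxp3-positive cells for 8 and in CD4 Foxp3-positive cells for 4. The median log2 level of the 34 genes was 9.46, 9.66 and 9.12 on CD8 control arrays A, B and C, and 9.06, 9.13 and 8.89 on the CD8 Foxp3-positive arrays. It was 8.90, 8.68 and 8.75 on the CD4 control arrays and 9.08, 9.10 and 8.996 on the CD4 Foxp3-positive arrays. Arrays A and B of the CD8 controls stood highest, array C was near the Foxp3-positive arrays, and CD4 controls B and C were the lowest arrays.

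CD8 control array C stands apart from its 2 partners for these genes. It was the lowest of its group for 34 of 34 members, while it was the lowest for 37.7% of all genes, and the members' median deviation from the group mean was -0.37 on C, 0.13 on A and 0.25 on B. Low arrays occurred in the other groups too, with smaller deviations. Array C was the lowest for 25 members in CD8 Foxp3-positive cells (36.8% of all genes) and for 26 in CD4 Foxp3-positive cells (34.9%). In CD4 controls it was array B, for 31 members (35.6% of all genes). The members' median deviations on these arrays were -0.13, -0.08 and -0.11. The median standard deviation (SD) over replicates was 0.333 for the members and 0.135 for all genes in CD8 controls, and 0.131, 0.128 and 0.0942 for the members in the other groups. On CD8 control array C the median deviation of cytoplasmic ribosomal proteins was 0.0017, that of cell cycle genes -0.08 and that of nucleotide synthesis genes -0.24. For 9 of the 34 members all 3 CD8 control arrays were above the other 9 arrays, which was so for 7.28% of all genes. The main counts that rest on CD8 controls are therefore given with and without CD8 control array C.

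**Figure D1:**
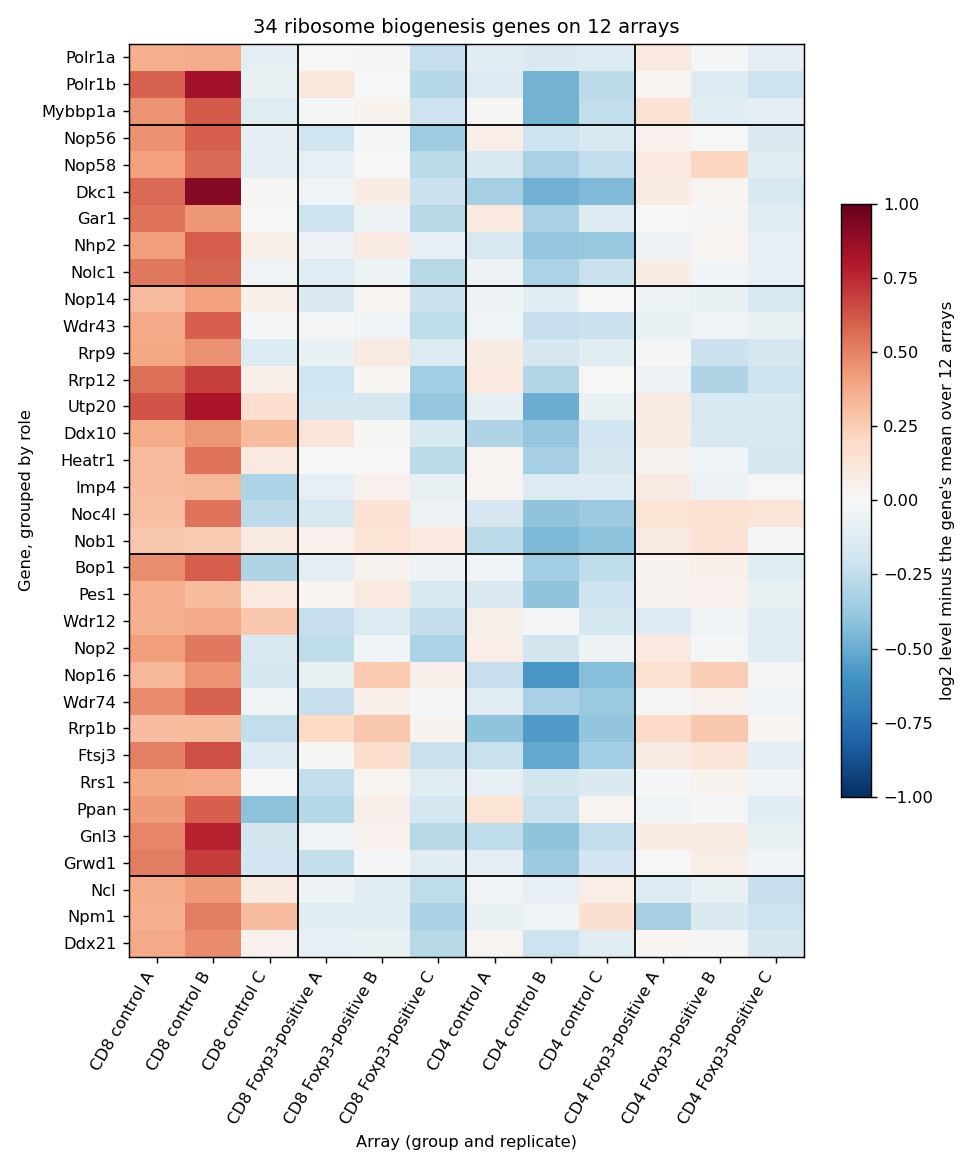
Each row is a ribosome biogenesis gene and each column an array; colour is the gene's log2 level minus its mean over the 12 arrays (red above, blue below), and horizontal lines separate the roles (RNA polymerase I, snoRNPs, small subunit, large subunit, chaperones and helicase). CD8 control arrays A and B are red for the members as a group, array C is paler and is the lowest of its group for 34 of 34 genes, and CD4 control array B is the lowest of its group for 31. Array C is the lowest for 25 genes in CD8 Foxp3-positive cells and for 26 in CD4 Foxp3-positive cells.

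Foxp3-positive CD8 cells were compared with CD8 controls to ask how these genes differ between the groups. In this comparison 15 of the 34 members fell and none rose (limma, adjusted p under 0.05), against 10.6% of all genes that fell and 9.39% that rose. The median log2 change was -0.41, with a range of -0.78 to 0.04, and -0.02 for all genes, and 33 of the 34 changes were below 0. At an unadjusted p under 0.05, 24 members were lower and 0 higher. The falls were modest, from 1.29-fold to 1.72-fold, and none reached 2-fold. Between 4 and 31 members fell when a single array was omitted: 5, 4 and 31 without CD8 control A, B and C, 6, 12 and 4 without CD8 Foxp3-positive A, B and C, and 12 or 13 without a CD4 array. Utp20, Wdr12, Ncl and Npm1 were called in all 12 omissions. Without CD8 control C the median change was -0.58, and 11.3% of all genes fell.

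Foxp3-positive CD4 cells gave no such fall. Against CD4 controls 3 members rose, Rrp1b, Nop16 and Nob1, and none fell, while 12.1% of all genes rose and 10.4% fell. The median log2 change was 0.16, within -0.24 to 0.61, and 0.00 for all genes, and 27 of 34 changes were above 0. At an unadjusted p under 0.05, limma gave 7 members higher and 1 lower, Npm1. The share of members that rose is thus below that of all genes. Omitting single arrays gave 2 to 6 members, with 6 without CD8 control C, an array outside this comparison that enters through the shared estimate of the spread. Nob1 and Rrp1b were called in all 12 omissions, and Nop16 lost its call without CD4 control B or C or CD4 Foxp3-positive A or B.

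**Figure D2:**
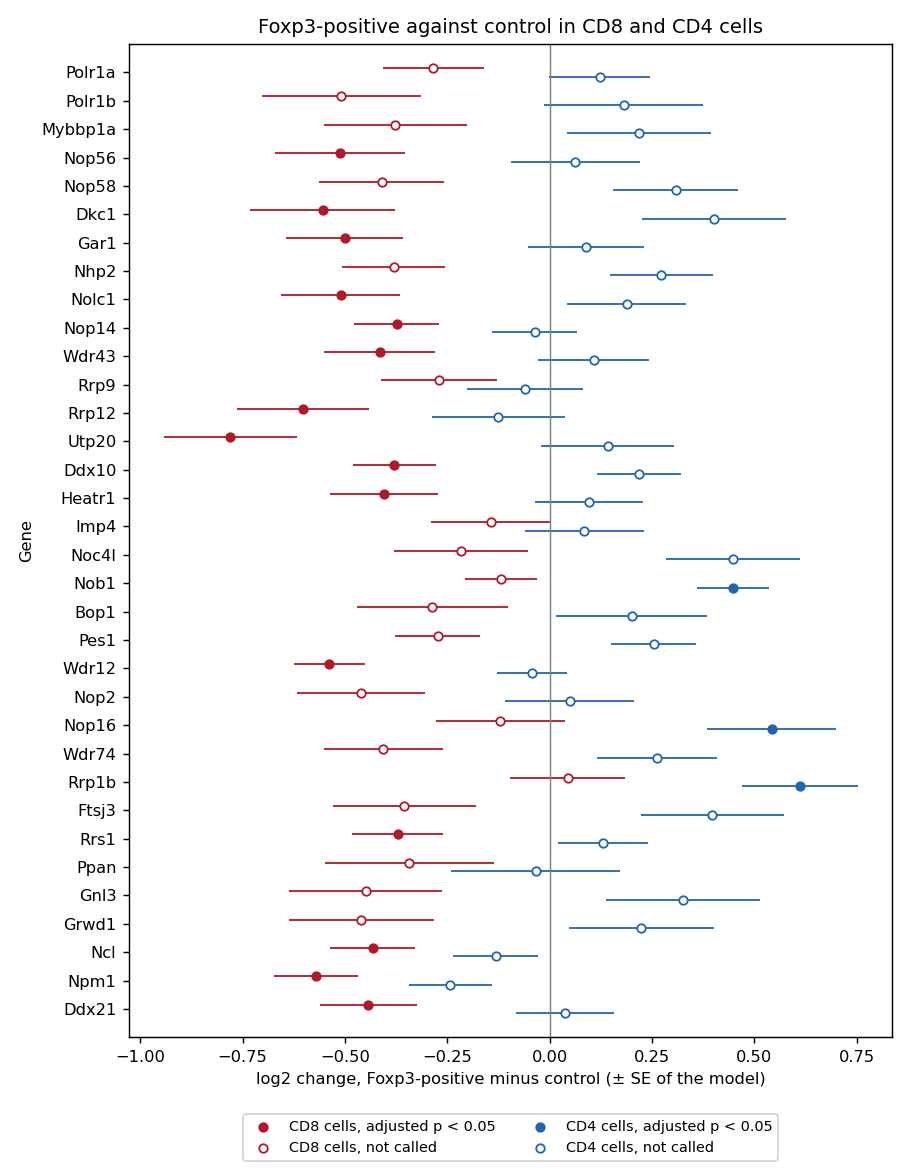
The log2 change from control to Foxp3-positive cells is plotted for each member in CD8 cells (red) and CD4 cells (blue); points are differences of group means of 3 arrays, bars are the standard error of the model, and filled points have an adjusted p under 0.05. In CD8 cells 15 filled points lie left of 0, and in CD4 cells 3 filled points (Nob1, Nop16 and Rrp1b) lie right of it.

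The change from control to Foxp3-positive cells was tested for a difference between lineages as an interaction, the CD8 effect minus the CD4 effect. It was below 0 for all 34 members, with a median of -0.57 and a range of -0.96 to -0.21, against a median of -0.01 for all genes. Of the members 10 passed the test, all of them lower, against 7.48% of all genes lower and 6.01% higher. These were Dkc1, Utp20, Nop58, Nolc1, Wdr74, Nhp2, Ddx10, Nob1, Pes1 and Wdr12. At an unadjusted p under 0.05 there were 28 lower and 0 higher. Utp20, Ddx10, Nob1 and Wdr12 were called in all 12 omissions. The count was 31 without CD8 control C, 4 or 5 without CD8 control A or B, CD8 Foxp3-positive A or C, CD4 control B or C, or CD4 Foxp3-positive A or B, and the median was -0.74 without CD8 control C.

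The lineages differed in their controls. Compared with CD4 controls, CD8 controls had higher levels of 25 members and lower levels of none, against 12.1% of all genes higher and 8.76% lower. All 34 differences were above 0, with a median of 0.50 and a range of 0.19 to 0.91, and 30 were higher and 0 lower at an unadjusted p under 0.05. The called differences ran from 1.25-fold to 1.88-fold. The 10 members called for the interaction were all among these 25, and 12 of the 15 that fell in CD8 cells were too; these comparisons share the control arrays. Without CD8 control A, CD8 control B or CD4 control B the count was 9, without CD4 control C it was 15, and without CD8 control C it was 34, with a median of 0.66. Dkc1, Nhp2, Utp20, Ddx10, Nob1, Pes1, Wdr12 and Wdr74 were called in all 12 omissions. By role the genes higher in CD8 controls numbered 2 of 3 for RNA polymerase I (0 to 3 over the omissions), 5 of 6 for snoRNPs (2 to 6), 7 of 10 for the small subunit (3 to 10), 9 of 12 for the large subunit (3 to 12) and 2 of 3 for the chaperones and helicase (0 to 3). The highest count of each role came without CD8 control C, and the lowest without CD8 control A or B (also without CD4 control B for all but the large subunit, and without CD4 control C for the small subunit).

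Between the Foxp3-positive groups no member passed limma's test in either direction, and none had an unadjusted p under 0.05. Of all genes 2.41% were higher and 2.3% lower in the CD8 cells. The median log2 difference, CD8 minus CD4, was -0.05, within -0.19 to 0.09. The 95% confidence intervals of the 34 members all lay between -0.53 and 0.47, so differences of up to 1.45-fold remain possible for some members. No omission of an array gave a call. The arrays of these groups overlapped for all members except Utp20 and Wdr12, whose 3 CD8 values each lay below the 3 CD4 values. Of all 22180 genes 2531 lay lower and 2512 higher in the CD8 cells without overlap, a larger share than 2 of 34.

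RNA polymerase I and its partners were represented by 3 members. Polr1a and Polr1b encode the 2 largest subunits of the enzyme, and Mybbp1a a nucleolar protein found with it. Polr1b measured 8.08, 8.33 and 7.41 on CD8 controls A, B and C, 7.60, 7.49 and 7.21 on CD8 Foxp3-positive arrays, 7.36, 7.02 and 7.23 on CD4 controls and 7.52, 7.36 and 7.28 on CD4 Foxp3-positive arrays. CD8 control C lay among the CD8 Foxp3-positive values. The change in CD8 cells was -0.51 ± 0.19 (standard error, SE, n = 3 against 3; limma adjusted p = 0.0914), and CD8 controls were 1.67-fold above CD4 controls (0.74 ± 0.19; limma adjusted p = 0.0158). Polr1a had the smallest changes of the 3: 8.97, 8.99 and 8.52 on CD8 controls, 8.61, 8.63 and 8.39 on CD8 Foxp3-positive arrays, 8.51, 8.48 and 8.48 on CD4 controls and 8.71, 8.60 and 8.53 on CD4 Foxp3-positive arrays. Its change in CD8 cells was -0.28 ± 0.12 (limma adjusted p = 0.139). None of the 3 genes passed in CD8 or CD4 cells, although 2 had an unadjusted p under 0.05 in CD8 cells and 0 in CD4 cells, and Polr1b and Mybbp1a were higher in CD8 than in CD4 controls. Without CD8 control C all 3 fell in CD8 cells.

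The snoRNP genes encode the proteins that carry guide RNAs to the ribosomal precursor. Nop56 and Nop58 belong to the box C/D particles that direct methylation, and Dkc1, the pseudouridine synthase dyskerin, works with Gar1 and Nhp2 in the H/ACA particles. Nolc1 is a nucleolar phosphoprotein that binds both kinds. Of these 6 measured genes 4 fell in CD8 cells (Dkc1, Nop56, Nolc1 and Gar1), none passed in CD4 cells, where 1 was higher at an unadjusted p under 0.05, and 5 were higher in CD8 than in CD4 controls. Dkc1 measured 9.78, 10.12 and 9.22 on CD8 controls, 9.17, 9.29 and 9.001 on CD8 Foxp3-positive arrays, 8.88, 8.73 and 8.77 on CD4 controls and 9.28, 9.24 and 9.06 on CD4 Foxp3-positive arrays. CD4 controls were the lowest group without overlap, and CD8 control C lay within the Foxp3-positive values. The change of Dkc1 was -0.55 ± 0.18 in CD8 cells (1.47-fold; limma adjusted p = 0.0424) and 0.40 ± 0.18 in CD4 cells (limma adjusted p = 0.130). Its CD8 call held in 2 of 12 omissions, those of CD8 control C and CD4 Foxp3-positive C.

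Nhp2, with the smallest changes of the snoRNP genes by the larger of its 2 effects, measured 9.52, 9.71 and 9.16 on CD8 controls, 9.05, 9.19 and 9.02 on CD8 Foxp3-positive arrays, 8.94, 8.72 and 8.72 on CD4 controls and 9.05, 9.13 and 9.02 on CD4 Foxp3-positive arrays. Here too the CD4 controls lay below every other array. The change was -0.38 ± 0.13 in CD8 cells (limma adjusted p = 0.0515), and CD8 controls were 1.59-fold above CD4 controls (limma adjusted p = 0.00193). Nop56 had 3 clusters: the brightest gave -0.51 in CD8 cells, and the other two gave -0.20 each, neither past the threshold. Without CD8 control C all 6 snoRNP genes fell in CD8 cells, and without CD8 control A or B, or CD8 Foxp3-positive A or C, 0 did.

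The small subunit genes encode parts of the processome and late factors. Utp20, Heatr1, Nop14, Wdr43, Imp4, Noc4l and Rrp9 act in the nucleolar processome that cuts out the small subunit RNA, Ddx10 is a helicase, Rrp12 takes part in later steps and export, and Nob1 is the nuclease that makes the last cut. Of the 10 measured genes 6 fell in CD8 cells (Utp20, Rrp12, Wdr43, Heatr1, Ddx10 and Nop14), Nob1 rose in CD4 cells, and 7 were higher in CD8 than in CD4 controls. Utp20 had the largest fall of all members in CD8 cells. It measured 8.71, 8.89 and 8.25 on CD8 controls, 7.91, 7.91 and 7.69 on CD8 Foxp3-positive arrays, 7.99, 7.58 and 8.01 on CD4 controls and 8.16, 7.92 and 7.93 on CD4 Foxp3-positive arrays. All 3 CD8 controls were above the 9 remaining arrays. The change was -0.78 ± 0.16 in CD8 cells (1.72-fold; limma adjusted p = 0.0038) and 0.14 ± 0.16 in CD4 cells (limma adjusted p = 0.604).

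Nob1 behaved differently from Utp20 in that its CD4 change passed and its CD8 change did not. It measured 9.85, 9.84 and 9.67 on CD8 controls, 9.62, 9.71 and 9.67 on CD8 Foxp3-positive arrays, 9.31, 9.13 and 9.17 on CD4 controls and 9.67, 9.72 and 9.57 on CD4 Foxp3-positive arrays. CD4 controls stood below all other arrays, which overlapped. The rise in CD4 cells was 0.45 ± 0.09 (1.36-fold; limma adjusted p = 0.00226), the change in CD8 cells -0.12 ± 0.09 (limma adjusted p = 0.432). Imp4 changed least, with 9.83, 9.85 and 9.20 on CD8 controls, 9.44, 9.57 and 9.45 on CD8 Foxp3-positive arrays, 9.55, 9.39 and 9.40 on CD4 controls and 9.61, 9.46 and 9.52 on CD4 Foxp3-positive arrays. CD8 control C was its lowest array of all 12. Its changes were -0.14 ± 0.15 in CD8 cells (95% interval -0.46 to 0.17) and 0.08 ± 0.15 in CD4 cells. Noc4l had a CD4 change of 0.45 ± 0.16 that missed the threshold (limma adjusted p = 0.0703). The small subunit count in CD8 cells was 9 without CD8 control C and 1 or 2 without CD8 control A or B or CD8 Foxp3-positive A or C.

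**Figure D3:**
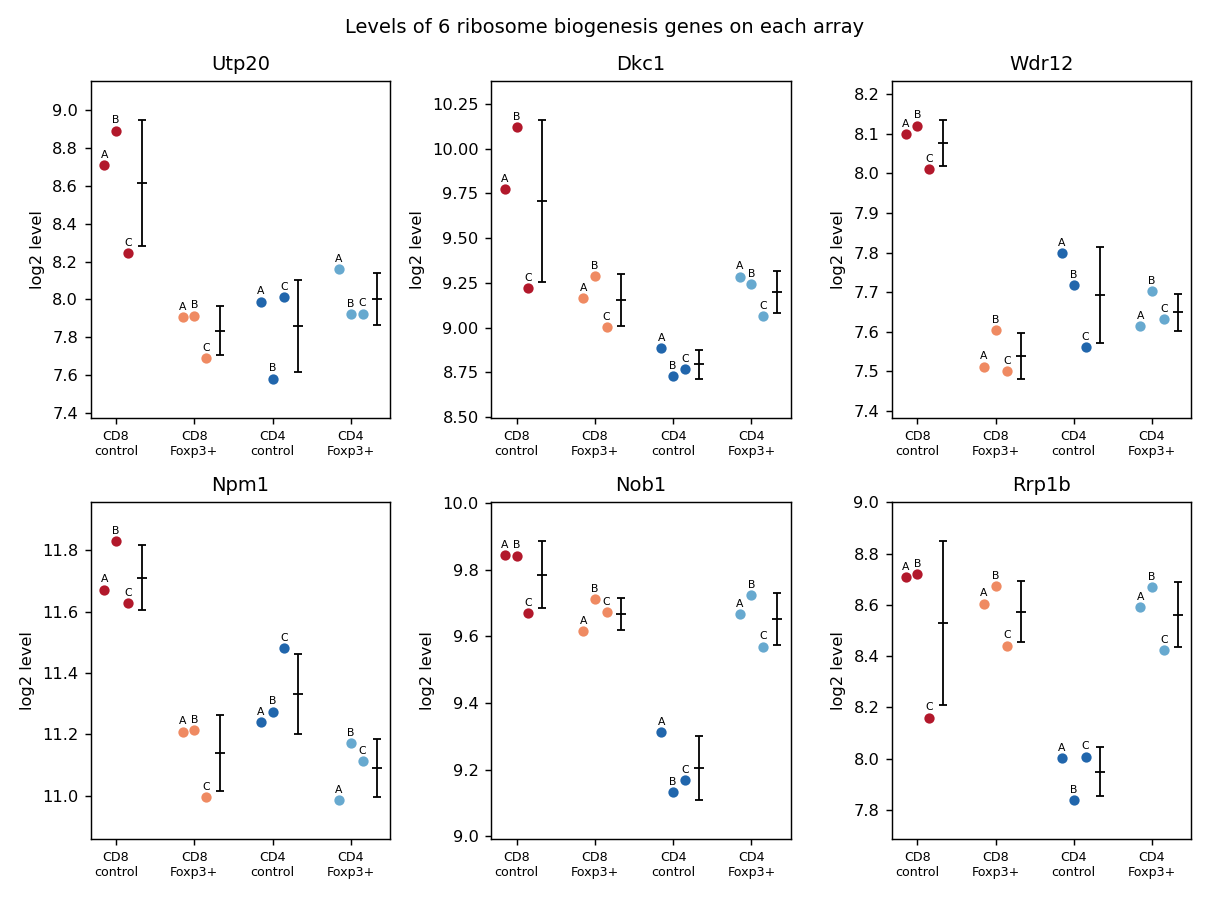
Log2 levels of 6 members on each array are shown as points lettered by replicate (A to C), with the group mean and SD (n = 3) as black bars; the vertical axes differ and do not start at 0. Utp20, Wdr12 and Npm1 are above all other arrays in the 3 CD8 controls, Nob1 and Rrp1b are lowest in CD4 controls, and in Dkc1 the CD8 control C point lies within the Foxp3-positive values.

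The large subunit genes form the biggest role. Pes1, Bop1 and Wdr12 make up the PeBoW complex, Nop2 and Ftsj3 are methyltransferases, Gnl3 (nucleostemin) is a GTP-binding protein, and Rrs1, Ppan, Nop16, Wdr74, Grwd1 and Rrp1b are assembly factors. Of these 12 genes 2 fell in CD8 cells (Wdr12 and Rrs1), 2 rose in CD4 cells (Rrp1b and Nop16), and 9 were higher in CD8 than in CD4 controls. Within PeBoW the subunits differed in their calls in CD8 cells. Wdr12 measured 8.10, 8.12 and 8.01 on CD8 controls, 7.51, 7.60 and 7.5 on CD8 Foxp3-positive arrays, 7.80, 7.72 and 7.56 on CD4 controls and 7.61, 7.70 and 7.63 on CD4 Foxp3-positive arrays. It was high on all 3 CD8 control arrays, C included, with no overlap with the other 9. Its fall in CD8 cells was -0.54 ± 0.09 (1.45-fold; limma adjusted p = 0.000552), and its CD4 change was -0.04 ± 0.09 (limma adjusted p = 0.783).

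Pes1 measured 10.10, 10.06 and 9.84 on CD8 controls, 9.76, 9.84 and 9.59 on CD8 Foxp3-positive arrays, 9.60, 9.35 and 9.54 on CD4 controls and 9.78, 9.79 and 9.68 on CD4 Foxp3-positive arrays. Its groups ranged from highest in CD8 controls to lowest in CD4 controls, with changes of -0.27 ± 0.10 in CD8 cells (limma adjusted p = 0.0913) and 0.25 ± 0.10 in CD4 cells (limma adjusted p = 0.107) that did not pass, and an interaction that did. Bop1 changed by -0.29 ± 0.19 in CD8 cells (limma adjusted p = 0.353). Whether the subunits differ from each other was not tested. Rrp1b measured 8.71, 8.72 and 8.16 on CD8 controls, 8.61, 8.67 and 8.44 on CD8 Foxp3-positive arrays, 8.002, 7.84 and 8.01 on CD4 controls and 8.59, 8.67 and 8.42 on CD4 Foxp3-positive arrays. CD4 controls were lowest without overlap and the other 3 groups overlapped, with CD8 control C below the rest of them. Rrp1b rose 1.53-fold in CD4 cells (0.61 ± 0.14; limma adjusted p = 0.00661), and its CD8 change was 0.04 ± 0.14 (95% interval -0.26 to 0.35), or -0.14 without CD8 control C. Nop16 rose 1.46-fold in CD4 cells (0.54 ± 0.16; limma adjusted p = 0.0245). The large subunit count in CD8 cells was 10 without CD8 control C and 1 without CD8 control A or B or CD8 Foxp3-positive A or C.

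Nucleolar chaperones and a helicase made up the last role. Npm1 (nucleophosmin) and Ncl (nucleolin) are abundant RNA-binding chaperones of the nucleolus, and Ddx21 is a nucleolar helicase. All 3 fell in CD8 cells and none passed in CD4 cells, where Npm1 alone was lower at an unadjusted p under 0.05. Npm1 measured 11.67, 11.83 and 11.63 on CD8 controls, 11.21, 11.21 and 10.996 on CD8 Foxp3-positive arrays, 11.24, 11.27 and 11.48 on CD4 controls and 10.99, 11.17 and 11.11 on CD4 Foxp3-positive arrays. The 3 CD8 controls were above all other arrays, and CD4 controls lay above CD4 Foxp3-positive cells without overlap. The change was -0.57 ± 0.10 in CD8 cells (1.49-fold; limma adjusted p = 0.00129) and -0.24 ± 0.10 in CD4 cells (limma adjusted p = 0.116). A dimmer second cluster of Npm1 fell in CD8 cells by 0.85 on the log2 scale. Npm1 is known to have many near-identical pseudogene copies, so its array signal may include them.

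Ncl measured 11.26, 11.31 and 10.97 on CD8 controls, 10.83, 10.78 and 10.63 on CD8 Foxp3-positive arrays, 10.86, 10.80 and 10.95 on CD4 controls and 10.75, 10.81 and 10.66 on CD4 Foxp3-positive arrays. Its CD8 controls lay highest, with C close to the top CD4 control. It fell 1.35-fold in CD8 cells (-0.43 ± 0.10; limma adjusted p = 0.00924), with a CD4 change of -0.13 ± 0.10 (limma adjusted p = 0.425). Ddx21 fell by 0.44 ± 0.12 on the log2 scale in CD8 cells (limma adjusted p = 0.0182), and its dimmer second cluster changed by -0.49. None of the 3 passed for the interaction, where 2 had an unadjusted p under 0.05 and their median was -0.33.

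Members with and without an E-box had similar medians. The 7 measured members with the word had median changes of -0.41 in CD8 cells and 0.14 in CD4 cells and a median control difference of 0.51, with 2 that fell in CD8 cells (Utp20 and Wdr43). The 23 measured members with a promoter entry and no E-box had medians of -0.40, 0.19 and 0.54, with 10 that fell. A difference between them was not tested.

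Other ribosome biogenesis genes, listed by role and not among the members, are given next. For these and the later lists the shares of all genes are the background. In CD8 cells 10.6% of all genes fell and 9.39% rose, and in CD4 cells 12.1% rose and 10.4% fell. Between controls 12.1% were higher and 8.76% lower in CD8 cells. Of 43 other small subunit factors 12 fell and none rose in CD8 cells, 10 rose and 1 fell in CD4 cells, and 29 were higher in CD8 controls than in CD4 controls. Their median changes were -0.24, 0.22 and 0.49. Utp14a, a processome subunit, fell 1.90-fold in CD8 cells (-0.93 ± 0.12; limma adjusted p = 9.73e-05) and changed by 0.20 ± 0.12 in CD4 cells (limma adjusted p = 0.279). Wdr46, another processome protein, passed in CD4 cells instead, with a 1.90-fold rise (0.93 ± 0.11; limma adjusted p = 5.32e-05) and -0.07 ± 0.11 in CD8 cells (limma adjusted p = 0.763). Utp4 passed in neither. Of 44 other large subunit factors 12 fell in CD8 cells, 9 rose and 1 fell in CD4 cells, and 28 were higher and 2 lower in CD8 controls. Sdad1 and Noc2l, the largest changes in this list, fell in CD8 cells by 0.74 ± 0.12 and 0.64 ± 0.13 on the log2 scale (limma adjusted p = 0.000452 and 0.00318). Rrp1 passed in neither lineage.

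Among 10 other snoRNP factors 6 fell in CD8 cells and 3 rose in CD4 cells, with Naf1, an H/ACA assembly factor, up 1.93-fold in CD4 cells (0.95 ± 0.12; limma adjusted p = 8.44e-05) and Ruvbl2, a helicase of snoRNP assembly, down 1.51-fold in CD8 cells (limma adjusted p = 0.00167). Znhit3 passed in neither. In the RNA exosome, which trims ribosomal precursors, 6 of 11 genes fell in CD8 cells. In CD4 cells 3 exosome genes rose and 1 fell. Exosc7 went in opposite directions, -0.47 ± 0.13 in CD8 cells and 0.50 ± 0.13 in CD4 cells (limma adjusted p = 0.0242 and 0.0155), and Mphosph6 fell in both (-0.34 and -0.50). Exosc1 passed in neither. RNA polymerase III and its 5S factors gave 5 of 20 that fell and 2 that rose in CD8 cells, and 4 that rose and 1 that fell in CD4 cells, led by Polr3g (-0.53 in CD8 cells) and Polr3k (-0.52 in CD8 and -0.37 in CD4 cells). Gtf3c2 passed in neither. Among 14 other RNA polymerase I factors the median change in CD8 cells was 0.00, with 1 that fell, Tcof1 (treacle, -0.67 ± 0.10; limma adjusted p = 0.000292), and 2 that rose in CD4 cells, Taf1a among them (0.58 ± 0.13). Taf1d passed in neither. For these 14 genes the 1 fall in CD8 cells and the 2 rises in CD4 cells lie near the shares of all genes.

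The counts in CD8 cells moved with the arrays as those of the members did. With an array omitted, the other small subunit factors that fell numbered 2 (without CD8 control B) to 26 (without CD8 control C), the other large subunit factors 7 (without CD8 control A or B) to 26 (without CD8 control C), the other snoRNP factors 3 (without CD8 control B or CD8 Foxp3-positive C) to 7, and the exosome genes 0 (without CD8 control A or CD8 Foxp3-positive C) to 9. The RNA polymerase III genes that fell numbered 3 (without CD8 control A or B, or CD8 Foxp3-positive A or C) to 7 (without CD8 control C), and the other RNA polymerase I factors 1 to 2 (without CD8 control C).

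Counts of the other lists between controls moved too. The other large subunit factors that were higher in CD8 controls numbered 15 without CD8 control B or CD4 control B, 17 without CD8 control A, 18 without CD4 control C and 34 without CD8 control C. For the other small subunit factors the range was 21 to 35, with 35 without CD8 control C. In CD4 cells the other small subunit factors that rose numbered 5 without CD4 control B or C or CD4 Foxp3-positive A or B, and 15 without CD8 control C. The exosome genes that rose numbered 1 without CD4 Foxp3-positive A, and the RNA polymerase III genes 2 without CD4 control B or CD4 Foxp3-positive B. Between the Foxp3-positive groups these lists had no calls except 1 gene of the other RNA polymerase I factors, higher in CD8 cells.

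The ribosomal proteins themselves, the products that biogenesis factors assemble, moved little. Of 58 measured genes of 77 listed, 3 fell and 1 rose in CD8 cells, 0 passed in CD4 cells (limma; 4 higher and 0 lower at an unadjusted p under 0.05) and 8 were higher in CD8 controls, with median differences of -0.05, 0.02 and 0.10. The 8 are 13.8% of the list, against 12.1% of all genes, and they became 1 without CD8 control B, 2 without CD8 control A or CD4 control B, 5 without CD4 control C and 8 without CD8 control C. The 3 that fell became 1 without CD8 control A or B or CD8 Foxp3-positive A, and 4 without CD8 control C. In CD8 and CD4 cells these shares are below those of all genes. Rpl6 (-0.50 ± 0.14; limma adjusted p = 0.021) and Rpl34 (-0.38 ± 0.09; limma adjusted p = 0.00892) had the largest changes past the threshold in CD8 cells, and Rpl21 passed in neither lineage. Ribosomal protein genes have many near-identical pseudogenes, and probes may read those too. Their median level was between 10.82 and 11.06 on all 12 arrays.

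Genes of growth and division were set beside the members. Of 14 nucleotide synthesis genes 10 fell in CD8 cells, 3 rose and 1 fell in CD4 cells, and 12 were higher in CD8 controls, with medians of -0.53, 0.22 and 0.68. Gart, of purine synthesis, fell by 0.78 ± 0.15 on the log2 scale in CD8 cells and changed by 0.22 ± 0.15 in CD4 cells. Impdh1, of guanine nucleotide synthesis, fell in both (-1.11 ± 0.11 and -0.86 ± 0.11). Cad passed in neither. Of 21 cell cycle genes 20 fell in CD8 cells, 2 rose and 1 fell in CD4 cells, and 16 were higher in CD8 controls, with medians of -0.56, 0.01 and 0.54. The licensing genes Cdc6 and Cdt1 each fell by 0.89 on the log2 scale in CD8 cells, and Tyms passed in neither. The counts that fell in CD8 cells stayed at 9 to 11 and 18 to 20 when single arrays were omitted, and those higher in CD8 controls at 10 to 14 and 12 to 18. In bulk samples fewer cells of a type and less RNA per cell cannot be told apart.

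**Figure D4:**
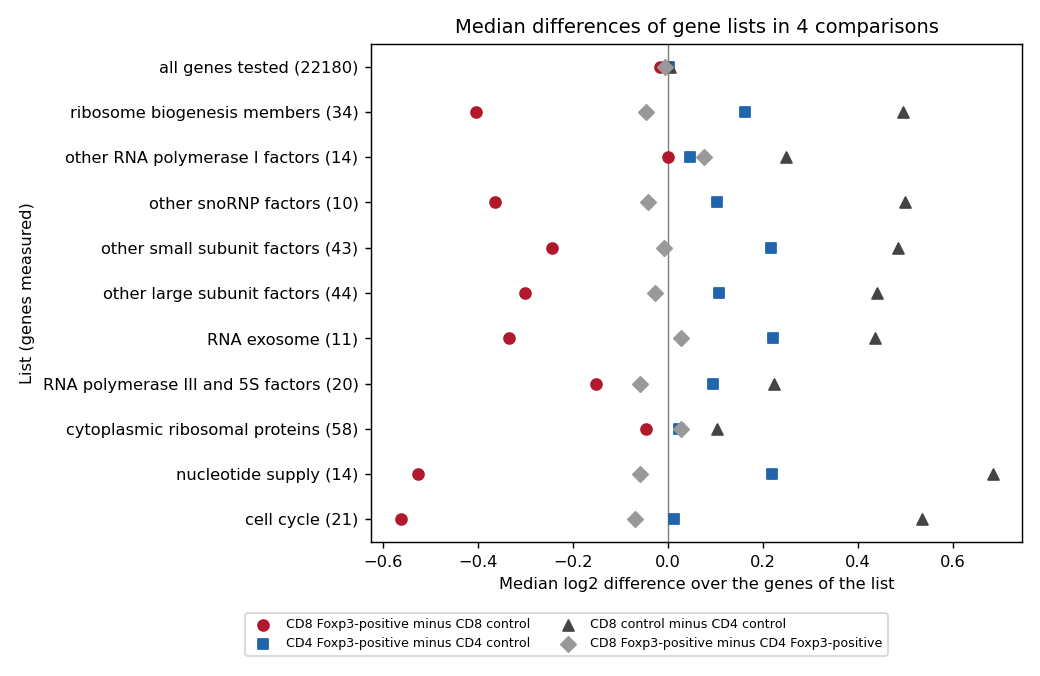
Median log2 differences over the measured genes of each list (number in parentheses) are plotted for 4 comparisons, with all genes tested at the top; no error is drawn because genes of a list are not replicates. The members lie at -0.41 (CD8 effect), 0.16 (CD4 effect), 0.50 (controls) and -0.05 (Foxp3-positive groups), and the ribosomal proteins at -0.05, 0.02, 0.10 and 0.03.

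Myc was not lower in Foxp3-positive CD8 cells. It measured 11.06, 10.93 and 10.67 on CD8 controls, 11.28, 11.18 and 11.04 on CD8 Foxp3-positive arrays, 10.43, 10.36 and 10.23 on CD4 controls and 11.21, 11.08 and 11.27 on CD4 Foxp3-positive arrays. The CD4 controls were lowest without overlap, as for Nob1 and Rrp1b, and CD8 controls lay below or beside the sorted cells. Myc rose 1.80-fold in CD4 cells (0.85 ± 0.11; limma adjusted p = 0.000103), and its change in CD8 cells was 0.28 ± 0.11 (limma adjusted p = 0.111). Max, its dimer partner, rose 1.98-fold in CD8 cells and 1.70-fold in CD4 cells (limma adjusted p = 1.16e-05 and 7.62e-05). Of 12 genes of the network 3 rose in CD8 cells, Max, Mxd1 and Mxd4, and Mxd3 fell. In CD4 cells Myc and Max rose, and Mycn and Mlx fell.

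Mxd1 and Mxd4 were at their lowest in CD8 controls. Mxd1 averaged 8.49 ± 0.26 (SD, n = 3) in CD8 controls, 10.06 ± 0.12 in CD8 Foxp3-positive cells, 10.52 ± 0.12 on CD4 control arrays and 10.41 ± 0.12 on CD4 Foxp3-positive arrays. It rose 2.97-fold in CD8 cells (1.57 ± 0.13; limma adjusted p = 2.27e-06), did not pass in CD4 cells (-0.11 ± 0.13; limma adjusted p = 0.628), and was 4.08-fold lower in CD8 than in CD4 controls. Mxd4 rose 2.82-fold in CD8 cells (1.497 ± 0.25; limma adjusted p = 0.000674), with a CD4 change of 0.25 ± 0.25. Within the CD8 controls, array C had the lowest Myc and the highest Mxd1 and Mxd4 of its group. That array was the lowest of its group for 37.7% of all genes, and the remaining network genes are not described for it. Whether the Myc network genes bear on the members was not tested.

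**Figure D5:**
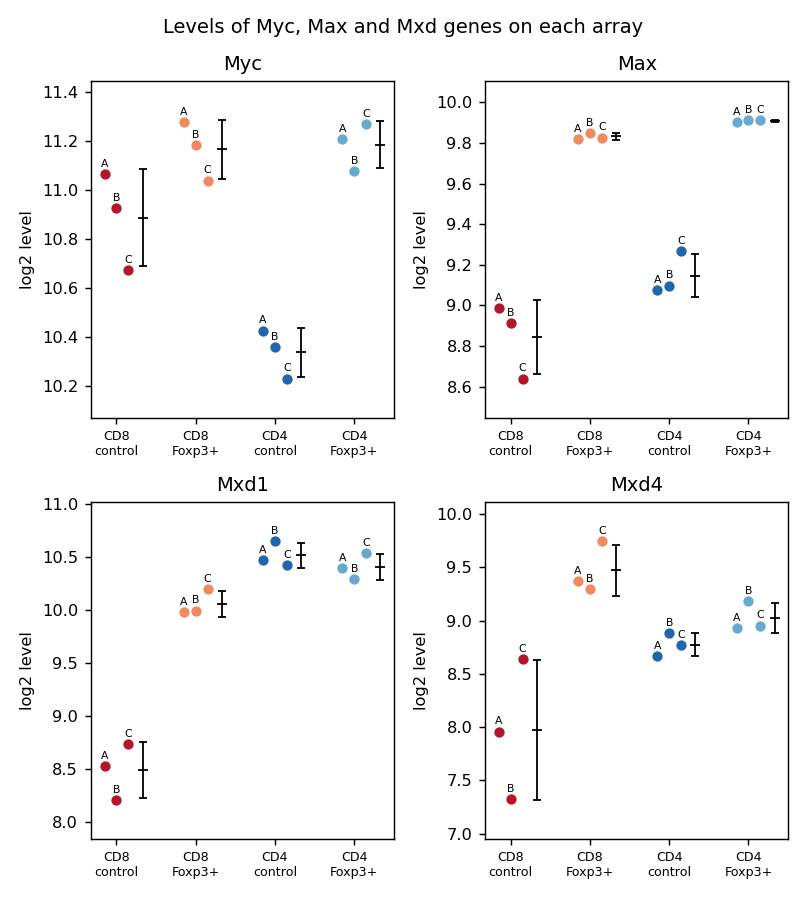
Log2 levels of Myc, its partner Max and the repressors Mxd1 and Mxd4 are shown on each array as points lettered by replicate, with the group mean and SD (n = 3) as black bars; the vertical axes differ and do not start at 0. Mxd1 averages 8.49 in CD8 controls and 10.06 or more in the other groups, and Myc averages 10.34 in CD4 controls and 10.89 or more in the others.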

How the data were processed

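RNA (250 ng per sample) was labelled and hybridised, per the labels' protocols, and the 12 deposited columns hold log2 expression values made by the authors by RMA in Affymetrix Expression Console, as the submitters' processing notes list them. RMA equalises the distribution of probe intensities between arrays before it summarises them, so a change in total RNA per cell would not show. Not given in the sources used here are the versions, the genome build and the array annotation, and no batch is labelled. Of 34365 clusters 23521 had 1 symbol, 1814 several and 9030 none listed, and only the first kind was used. Array medians were 5.23 to 5.33, and r across genes was 0.992 to 0.994 within groups and 0.962 to 0.991 between groups, and no arrays were identical.

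The 4 group means were fitted with limma 3.58.1 in R 4.3.3 (lmFit and eBayes, no trend, not robust, 8 residual degrees of freedom, prior 4.561 degrees of freedom). Tests were two-sided, with Benjamini-Hochberg adjustment over 22180 genes in each of 5 comparisons, threshold 0.05, and no filter on level. The model was tested on simulated data with noise drawn separately for each gene and array. A shift shared by many genes on an array, as on CD8 control C, was not simulated. Alternatives were the replicate letter as a block, trended and robust variance, only the groups compared, other clusters, centring, repeated quantile normalization, a filter on level, a threshold of 0.01 and omission of each array. Members and lists were chosen with earlier results of these data known. Members of each role with the largest and smallest change (by the larger of the CD8 and CD4 effects) are given on every array, as are Nob1, Wdr12 and Myc, which were chosen after their values were seen. From every other list except the cell type markers and the Myc network, the largest 2 changes and the brightest gene passing in neither are named. In the Myc network the genes called in CD8 or CD4 cells are named. The cell type markers named do not follow this rule. Omission of arrays for the other lists was added after the data were seen. Having 3 arrays per group limits the precision.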

Additional observations from a re-analysis of the deposited data

Results flagged for a closer look

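The change from control to Foxp3-positive cells differed between CD8 and CD4 cells for 10 of the 34 ribosome biogenesis genes. The test was limma's interaction test (CD8 effect minus CD4 effect, log2, adjusted over 22180 genes). Added factors and sort changed together within a lineage, and lineage and culture time cannot be told apart. In snoRNP genes the difference was -0.96 for Dkc1 (adjusted p = 0.0231), -0.72 for Nop58 (0.0439), -0.70 for Nolc1 (0.0416) and -0.65 for Nhp2 (0.0294). Small subunit genes gave -0.92 for Utp20 (adjusted p = 0.0188), -0.60 for Ddx10 (0.0154) and -0.57 for Nob1 (0.00924). For large subunit genes it was -0.67 for Wdr74 (adjusted p just under the threshold), -0.53 for Pes1 (0.0328) and -0.49 for Wdr12 (0.0172). In Utp20, Wdr12, Ddx10, Dkc1 and Nolc1 the fall in CD8 cells passed the test and the CD4 change did not. In Nob1 the CD4 rise passed and the CD8 change did not, and Nop58, Nhp2, Wdr74 and Pes1 passed in neither lineage. Only Utp20, Ddx10, Nob1 and Wdr12 held their call in all 12 omissions of an array. Between CD8 and CD4 controls all 34 differences were above 0 (median 0.50), and between the Foxp3-positive groups no member passed (median -0.05).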

How the results depend on the processing

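No member called in a comparison turned its direction when an array was omitted, and no called CD8 or CD4 change did under the other alternatives. Of the changes that were not called, 2 in CD8 cells (Nop16, and Rrp1b at -0.14 without CD8 control C), 6 in CD4 cells and 18 differences between the Foxp3-positive groups crossed 0 when an array was omitted. Averaging clusters turned Ddx21 in CD4 cells to -0.08, and centring turned Nop14 and Ppan there to 0.01, none of them called. Omitting single arrays gave 4 to 31 members called in CD8 cells, 2 to 6 in CD4 cells, 4 to 31 for the interaction and 9 to 34 between controls, and 0 between the Foxp3-positive groups. With only the arrays of the groups compared the counts were 7 in CD8 cells (15 with all arrays), 7 in CD4 cells (3) and 13 between controls (25). At an adjusted p under 0.01 they were 4 in CD8 cells, 1 for the interaction (10) and 9 between controls. A trended, robust variance gave 5 in CD4 cells and 18 for the interaction, testing only genes above the median level gave 5 and 21, and testing all clusters together gave 6 for the interaction. Whether replicate letters pair the samples is unclear. The 18 same-letter pairs had r from -0.10 to 0.14, 2 of them over 0.1, but 10 of 12 arrays matched best with their own letter. With the letter as a replicate block 18, 3, 11, 27 and 0 members were called. Other alternatives stayed within 1.5 times. With 3 arrays per group and CD8 control C apart, the counts of called members depend on which array is kept, and RMA's equalised probe intensities hide changes in total RNA.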
